A study of Mus musculus with 25 samples.

Results

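CD4 T cells of naive miR-150 knock-out mice were compared with those of naive wild-type mice across all genes. The comparison used the 8 libraries whose titles name them as knock-out naive (4) or wild-type naive (4), out of 25 libraries in the series, and 14703 of 46078 genes in the count table had enough reads to be tested. The cells were CD4 T cells sorted from mice of the C57BL/6NTac strain, and total RNA was sequenced. Mice were wild-type, miR-150 knock-out or miR-150 knock-in, either naive or at day 7 of experimental autoimmune encephalomyelitis, an immunization model of multiple sclerosis. Naive cells here means the CD4 T cells of libraries titled naive, the counterpart of day 7. The titles do not say whether a naive T cell subset was sorted. Memory and regulatory CD4 T cells may be among these cells, and their share was not tested. Knock-out and wild-type day 7 libraries (4 and 5) and knock-in naive libraries (4) are set beside the naive comparison below. How the alleles were built, in which cells they act and how old the mice were is not given in the sources used here. No label ties a library to a mouse of its own, so p-values describe only how far these samples spread, and that spread may be technical.

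MicroRNAs are short RNAs that guide Argonaute proteins to messenger RNAs with a partly complementary sequence, which are then degraded or translated less. miR-150 is abundant in mature resting lymphocytes and is known for repressing Myb, a transcription factor of lymphoid progenitors. In CD4 T cells it has been studied as a brake on differentiation and on growth factor signalling. Its hairpin is transcribed from a small gene, Mir150, and cut into a 5p and a 3p strand. The 5p strand has its own sequence, which is not shown, and repression of Myb is not ascribed to the 3p strand here. The 3p strand is shown because it places miR-150 in the genome. It is listed in RefSeq (GRCm38.p6) at chr7:45121798-45121819 on the plus strand, here 5′ to 3′ with the seed (bases 2 to 8) in capitals.
mmu-miR-150-3p: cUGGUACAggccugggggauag

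Library depth separated the groups. Wild-type naive libraries held 6024043 to 9351180 counts and knock-out naive libraries 13917799 to 43640843, with no overlap (exact permutation test, two-sided, p = 0.0286, the smallest that 4 against 4 libraries can give, adjusted p = 0.0571 over 6 library measures). Ribosomal RNA and like genes took 20.6% to 23.4% of counts in wild-type and 23.8% to 26.03% in knock-out libraries (same p-values as for depth). Depth, this share and genotype therefore cannot be told apart fully, and for the named genes values at a common depth are given where they could be had and moved by over 1.5 times or changed a call. CD4 T cell identity was alike in both groups: Cd4 ran from 443 to 496 CPM (read counts relative to library size, with TMM scaling) in wild-type and from 449 to 519 CPM in knock-out libraries. Cd3e, a subunit of the T cell receptor complex, ran from 294 to 303 and from 292 to 329 CPM. Log2 CPM of replicates correlated at 0.963 to 0.974 across genes, and no pair of libraries agreed within sampling noise.

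Loss of miR-150 was followed by few measurable differences in naive cells. edgeR's quasi-likelihood test with Benjamini-Hochberg adjustment called 3 genes at an adjusted p under 0.05 (0.0204% of those tested), 2 higher (0.0136%) and 1 lower (0.0068%) in the knock-out. The lower gene was Mir150 itself. The higher genes included Lgals1, which encodes galectin-1, a sugar-binding protein of activated T cells. Before adjustment, 1110 genes (7.55%) had a p under 0.05, 586 higher (3.99%) and 524 lower (3.56%). In 693 genes (4.71%) the 4 knock-out libraries did not overlap the 4 wild-type libraries. The median log2 fold change of all tested genes was 0.00, with quartiles at -0.13 and 0.15. DESeq2 called 16 genes (0.109%), 12 higher and 4 lower, and limma voom called 3, all higher.

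**Figure D1:**
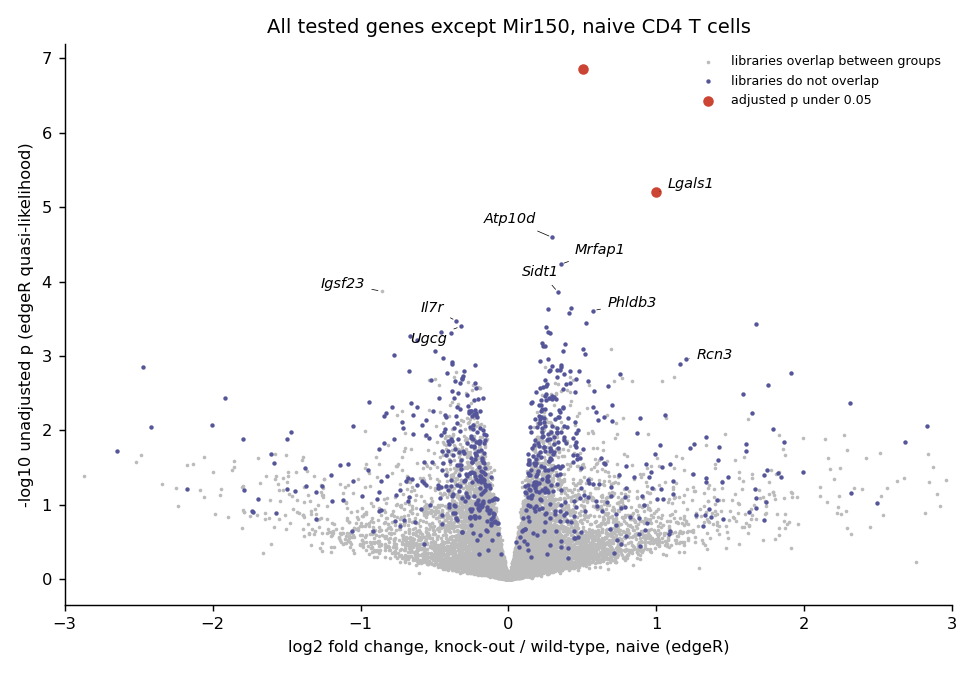
Each point is a tested gene other than Mir150: the x axis is the edgeR log2 fold change of knock-out over wild-type naive cells and the y axis is -log10 of the unadjusted p (30 genes lie beyond the plotted range of 3 on the x axis). Lgals1 is among the called genes, drawn as large red points, and most genes whose libraries do not overlap differ by under 1 log2 unit.

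Mir150 was read first because it checks the genotypes. Mir150 (ENSMUSG00000065495, miRNA gene on chromosome 7, 45121757 to 45121821 in mm10, plus strand) gave 0 counts in all 4 knock-out libraries. The wild-type libraries held 24.5, 23.9, 17.9 and 14.4 CPM, from 140 to 178 counts each. The groups did not overlap. With a limit of 3 counts over the knock-out group, the level was at least 758-fold lower than in wild-type cells, for counting error only (edgeR adjusted p = 1.24e-09). limma voom, which weights each library, gave adjusted p = 0.0938. Knock-in naive libraries held 12.9, 14.1, 13.9 and 16.2 CPM. These reads come from RNA longer than the mature microRNA, which was not measured.

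Several genes near Mir150 had positive fold changes without passing the adjusted test. Gm45713 (chromosome 7, 45125922 to 45136231, minus strand), a predicted coding gene whose span overlaps Rpl13a on the same strand, held 45.8, 50.8, 43.8 and 56.6 CPM in wild-type and 58.6, 65.8, 69.6 and 68.2 CPM in knock-out libraries. The groups did not overlap (log2 fold change 0.41, SE 0.10, edgeR adjusted p = 0.352, DESeq2 adjusted p = 0.0494). At a common depth Gm45713 gave 0.41 (edgeR adjusted p = 0.446). With a trend on GC content removed, as described below, the value was 0.29 (edgeR adjusted p = 0.734). At day 7 its log2 fold change was 0.42 (SE 0.09, adjusted p = 0.0593). Reads of Gm45713 and Rpl13a cannot be fully told apart where they overlap. Rpl13a, a protein of the large ribosomal subunit, had a log2 fold change of 0.11 (SE 0.14), and its sign turned without knock-out replicate 3 (-0.05) and with wild-type replicates 1 and 3 and knock-out replicates 1 and 2 only (-0.15).

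Rcn3 (chromosome 7, 45082913 to 45092221, minus strand), which encodes a calcium-binding protein of the secretory pathway, lies 29536 bases before Mir150. Its level was low: 2.35, 2.55, 4.47 and 2.27 CPM in wild-type and 6.55, 6.66, 8.11 and 5.58 CPM in knock-out naive libraries. The lowest knock-out library was above the highest wild-type library (log2 fold change 1.197, SE 0.33, adjusted p = 0.399). On day 7 the values were 1.32 to 3.21 CPM in wild-type and 2.57 to 6.47 CPM in knock-out libraries, which overlap (log2 fold change 1.24, SE 0.30, adjusted p = 0.117). Knock-in naive libraries held 1.36 to 2.78 CPM, a log2 fold change of -0.52 (SE 0.34).

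The remaining near neighbours gave smaller or less certain values. Fcgrt, the neonatal Fc receptor, had a log2 fold change of 0.84 (SE 0.36, unadjusted p = 0.029) and 0.47 at a common depth, from 1.75 to 2.67 CPM in wild-type and from 2.20 to 4.81 CPM in knock-out libraries. Nosip, a regulator of nitric oxide synthase, gave 0.14 (SE 0.12). Prrg2 reached at most 1.26 CPM in any library, so a difference was not detectable at this depth (0.17, SE 0.51).

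Within 1 Mb of Mir150, 10 of 71 tested genes (14.1%) had an unadjusted p under 0.05 against 7.55% of all genes, 9 of them higher, and their median log2 fold change was 0.12. They included Prr12, a proline-rich nuclear protein (0.32, SE 0.10), and Cyth2, an exchange factor for ARF GTPases (0.29, SE 0.09). Both had a smaller value at day 7 (-0.00 and -0.08), and Prr12 gave 0.17 with the GC trend, described next, removed. Genes of this window were rich in GC: their median transcript GC content was 57.1% against 48.97% for all tested genes. After a trend on GC content was removed from each library, a setting added after the data were seen, their median log2 fold change was 0.02 and 41 of 71 were above 0.

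**Figure D2:**
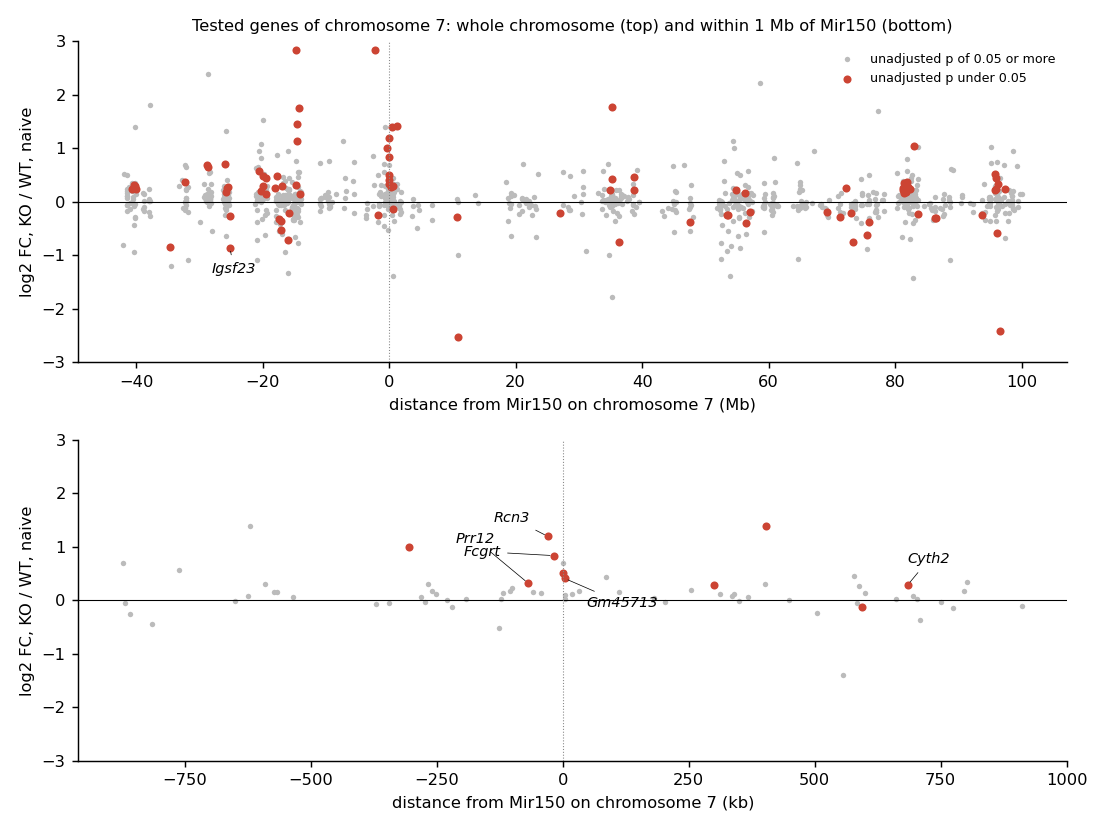
Each point is a tested gene of chromosome 7 other than Mir150, plotted by distance from Mir150 (x axis, Mb above and kb below) and by log2 fold change of knock-out over wild-type naive cells (y axis), red where the unadjusted p was under 0.05 (3 genes lie beyond the plotted range). Red points near Mir150 lie mostly above 0, and others are spread along the whole chromosome.

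Farther along chromosome 7, Igsf23, an immunoglobulin-superfamily gene, was called by DESeq2 but not by edgeR. Wild-type naive libraries held 7.69, 13.2, 16.9 and 14.8 CPM and knock-out naive libraries 9.01, 6.38, 7.73 and 6.07 CPM. Wild-type replicate 1 lay among the knock-out libraries and the other 3 stood above them all. The log2 fold change was -0.86 (SE 0.19, edgeR adjusted p = 0.291, DESeq2 adjusted p = 0.0176), and without wild-type replicate 1 edgeR called it (-1.04, adjusted p = 0.0206). With any other wild-type or knock-out naive library left out, edgeR did not call Igsf23 (-0.98 to -0.72, adjusted p = 0.164 to 0.684). On day 7 the groups did not overlap, at 12.1 to 16.1 CPM in wild-type and 5.08 to 8.45 CPM in knock-out libraries, and the gene was called (-1.06, SE 0.18, adjusted p = 0.0113). Of chromosome 7 as a whole, 9.47% of 1014 tested genes had an unadjusted p under 0.05. The share was 7.41% on all other chromosomes together, with chromosomes 17 (9.58%) and 19 (10.2%) as high as chromosome 7.

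**Figure D3:**
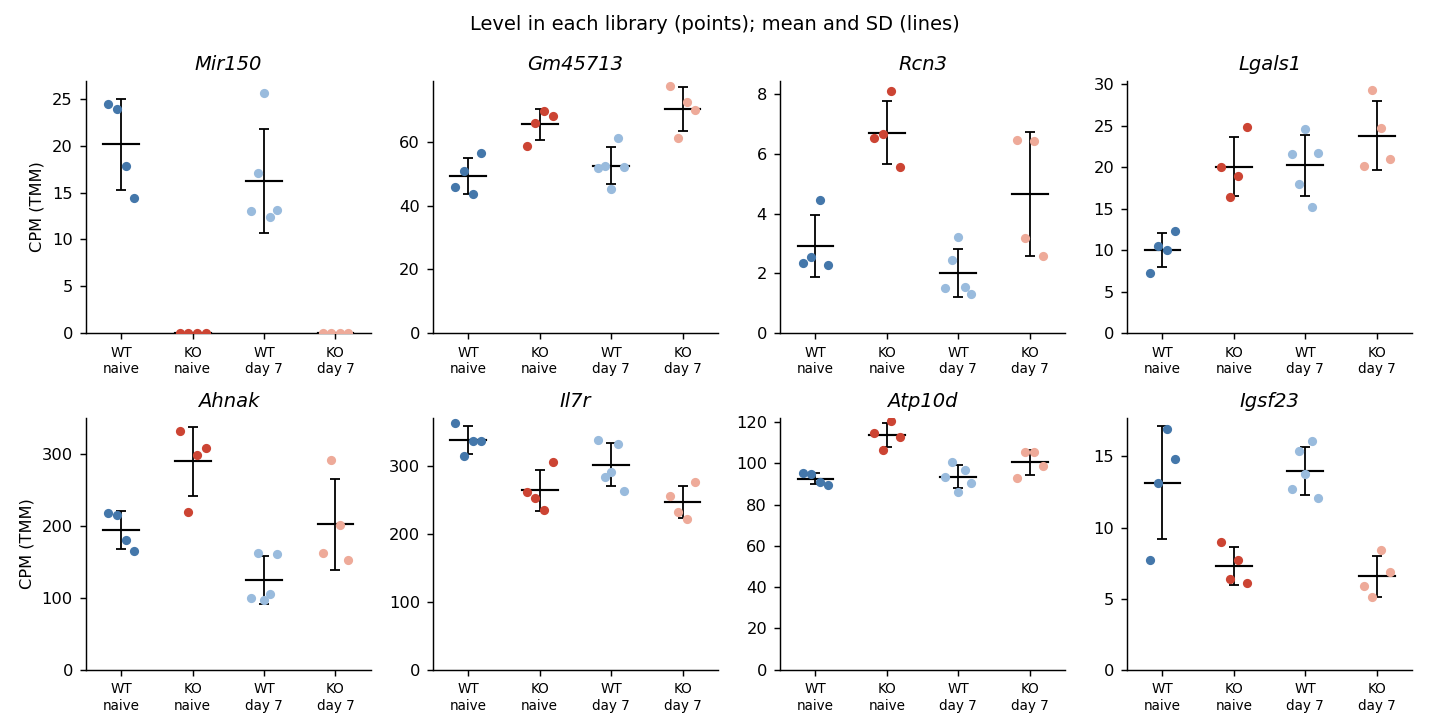
CPM (TMM-scaled, y axis from 0) of 8 genes in each library of wild-type and knock-out naive and day 7 cells, with the mean and SD of each group. Mir150 is at 0 in all knock-out libraries, Gm45713 is higher in the knock-out at both stages on average, and Lgals1 is separated in naive cells but overlaps at day 7.

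Lgals1 (ENSMUSG00000068220, chromosome 15, 78926725 to 78930465, plus strand) was called on another chromosome than Mir150. Galectin-1 is low in naive T cells and is known to increase on activation. Wild-type naive libraries held 7.22, 10.5, 9.999 and 12.3 CPM and knock-out naive libraries 20.01, 16.4, 18.98 and 24.9 CPM. The groups did not overlap, and the knock-out mean of 20.06 CPM (SD 3.56, n = 4) was close to the 20.2 CPM (SD 3.67, n = 5) of day 7 wild-type cells. The log2 fold change was 0.9997 (SE 0.18, edgeR adjusted p = 0.0307, limma voom 0.0418). At day 7 the knock-out libraries held 20.1 to 29.3 CPM and overlapped the wild-type (0.22, SE 0.16, adjusted p = 0.676). The difference between the naive and day 7 fold changes was 0.78 (SE 0.24) and did not pass adjustment (unadjusted p = 0.00309, adjusted p = 0.505). Knock-in naive libraries held 10.9 to 13.8 CPM, a log2 fold change of 0.28 (SE 0.18) against wild-type.

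The Lgals1 call depended on single libraries. Without any 1 of wild-type replicates 1, 2 and 3 or knock-out replicates 1, 3 and 4, its adjusted p was 0.0663 to 0.21, at log2 fold changes of 0.88 to 1.03. At a common depth it was 0.96 (adjusted p = 0.0528), and with the GC trend removed 0.93 (adjusted p = 0.0736).

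Genes of effector and memory T cells other than Lgals1 leaned the same way without passing the adjusted test. Of 29 tested genes on this list, 23 had a positive fold change and the median was 0.17, against 0.00 for all genes. Lgals1 was the 1 gene called. At an unadjusted p under 0.05, 5 were higher and 3 lower (27.6%, against 7.55% of all genes). Ahnak, a giant scaffold protein of differentiated T cells, held 217.3, 215.3, 180 and 165 CPM in wild-type and 332, 220, 299 and 308 CPM in knock-out libraries. Knock-out replicate 2 lay just above the highest wild-type library and the other 3 far above it (0.58, SE 0.18, adjusted p = 0.415). In day 7 cells Ahnak gave 0.70 (SE 0.17, adjusted p = 0.113). Itgb1, the integrin beta-1 chain of memory cells, held 51.3 to 60.2 CPM in wild-type and 68.8 to 84.1 CPM in knock-out libraries, without overlap (0.46, SE 0.17, adjusted p = 0.534). Its day 7 value was 0.80 (SE 0.16, adjusted p = 0.0542).

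S100a6, a calcium-binding protein, was near the limit of detection: 0.59 to 2.82 CPM in wild-type and 1.98 to 4.71 CPM in knock-out libraries (1.62, SE 0.56). Anxa5, the phosphatidylserine-binding annexin on the same list, went the other way, at 20.01 to 27.3 CPM in wild-type and 17.1 to 19.02 CPM in knock-out libraries (-0.38, SE 0.15, adjusted p = 0.534). Tnfrsf18, the receptor GITR, gave -0.26 (SE 0.12, and -0.16 at a common depth), with every knock-out library under every wild-type one. The summed level of the list was 1627 to 1804 CPM in wild-type libraries. It was 1936, 1705, 1946 and 1956 CPM in knock-out libraries 1 to 4, so that knock-out replicate 2 lay inside the wild-type range. The list's day 7 median was 0.11, with 22 of 29 positive.

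Il7r, the interleukin-7 receptor alpha chain that keeps naive T cells alive, led the genes that were lower on average, not called by edgeR and without overlap of the libraries. Wild-type naive libraries held 364, 314, 337 and 337 CPM and knock-out naive libraries 262, 254, 236 and 306 CPM. Knock-out replicate 4 came close to the lowest wild-type library and the other 3 lay well below. The log2 fold change was -0.35 (SE 0.09), with adjusted p = 0.363 from edgeR and 0.0449 from DESeq2. On day 7 it was -0.29 (SE 0.08, adjusted p = 0.183), with 264 to 338 CPM in wild-type and 222.6 to 276 CPM in knock-out libraries. Knock-in naive libraries held 338 to 398 CPM. The Il7r transcript has a low GC content (40.5%), which bears on the pattern by GC content given below. With the GC trend removed Il7r gave -0.27 (edgeR adjusted p = 0.729), and at a common depth -0.35 (edgeR adjusted p = 0.379).

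Genes of the naive and quiescent state, Il7r among them, showed no common direction. Of 22 tested, 8 had a positive and 14 a negative fold change, with a median of -0.03, and 3 were higher and 3 lower at an unadjusted p under 0.05 (27.3%, against 7.55% of all genes). Satb1, a chromatin organizer of naive T cells, held 1346 to 1534 CPM in wild-type and 1253 to 1321 CPM in knock-out libraries (-0.15, SE 0.06, adjusted p = 0.52). Igfbp4, an insulin-like growth factor binding protein marking naive cells, was 425 to 500.2 CPM in wild-type and 517 to 611 CPM in knock-out libraries (0.29, SE 0.10, adjusted p = 0.491). Id3, an inhibitor of E proteins, gave 0.57 (SE 0.21) and at day 7 0.52 (SE 0.19). Klf2, which drives the homing receptors of naive cells, gave 0.22 (SE 0.11) without overlap of the libraries, and 0.08 with the GC trend removed.

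The leading genes that edgeR did not call were picked among those whose libraries do not overlap, so that separation is no finding. The 12 leading higher genes had fold changes of 0.23 to 0.57 on the log2 scale. Spn, the sialomucin CD43, held 578, 569, 496 and 468 CPM in wild-type and 584, 623, 736 and 617 CPM in knock-out libraries, so the groups were separated by a narrow gap (0.28, SE 0.07, edgeR adjusted p = 0.363, DESeq2 0.04997). Arhgef2, an activator of RhoA, gave 0.27 (SE 0.06), Arhgdia, which holds small GTPases inactive, 0.26 (SE 0.06), and Myo1g, a class I myosin of lymphocytes, 0.27 (SE 0.07). Their adjusted p-values were 0.352 to 0.363 in edgeR. With the GC trend removed Arhgdia gave 0.11 (adjusted p = 0.878).

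Mrfap1 had the smallest p among these 12. It held 54.5 to 62.7 CPM in wild-type and 72.8 to 82.4 CPM in knock-out libraries (0.35, SE 0.07, edgeR adjusted p = 0.173, DESeq2 0.017). Sidt1, a membrane protein related to RNA transporters, held 121 to 135 CPM in wild-type and 152 to 179 CPM in knock-out libraries (0.33, SE 0.08, DESeq2 adjusted p = 0.0261). Gramd4 gave 0.43 (SE 0.10, DESeq2 adjusted p = 0.0261). The transcription factors among the 12 were Elf4, an ETS factor of T cell quiescence (0.23, SE 0.06), Maz (0.38, SE 0.10, and 0.21 with the GC trend removed) and Bcorl1, a corepressor (0.52, SE 0.13). Phldb3 (0.57, SE 0.14) and Tbc1d2b (0.25, SE 0.07) made up the rest. Atp10d, a lipid flippase gene annotated as a polymorphic pseudogene and so outside the naming rule, was chosen after its values were seen: 89.6 to 95.3 CPM in wild-type and 107 to 120 CPM in knock-out libraries (0.30, SE 0.06, edgeR adjusted p = 0.0937, DESeq2 0.00683, limma voom 0.0492).

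The 12 leading lower genes ran from -0.23 to -0.78. Beside Il7r, Ugcg, the enzyme that makes glucosylceramide, held 202.99, 196, 239 and 228 CPM in wild-type and 170, 186, 167 and 169 CPM in knock-out libraries (-0.32, SE 0.08, edgeR adjusted p = 0.363, DESeq2 0.04997). All 4 knock-out libraries lay below the lowest wild-type library, which the rule for picking these genes requires. Atxn3, a deubiquitinase, gave -0.45 (SE 0.11) in naive cells and 0.23 (SE 0.11) at day 7. App, the amyloid precursor, gave -0.38 (SE 0.11) and Bub3, a spindle checkpoint protein, -0.30 (SE 0.09). The zinc finger genes Zfp354c (-0.66, SE 0.17), Zfp931 (-0.78, SE 0.21) and Zfp281 (-0.23, SE 0.06) were on this side, as were Mosmo (-0.62, SE 0.16), Letm2 (-0.44, SE 0.12), Utp4, a factor of ribosome assembly (-0.39, SE 0.10), and Mrpl35, a protein of the mitochondrial ribosome (-0.41, SE 0.12).

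GC content separated these sides. The 12 leading higher genes had a GC content of 50.8% to 63.6% and the 12 leading lower genes 33.2% to 47.6%, with no overlap. Across 8586 coding genes of at least 5 CPM, the naive fold change correlated with GC content (Spearman's rho 0.461, across genes, which share libraries and are not replicates). For the day 7 genotype difference rho was -0.0942. For knock-in over wild-type naive cells, which uses the same wild-type libraries, it was 0.168. In the quintile of genes with the lowest GC content the median log2 fold change was -0.08, with 11 genes higher and 169 lower at an unadjusted p under 0.05. In the highest quintile it was 0.11, with 237 higher and 6 lower. Per library, the median deviation of the highest minus the lowest quintile ran from -0.22 to 0.10 in wild-type and from 0.00 to 0.25 in knock-out libraries. The groups overlapped on this measure (exact permutation test, two-sided, p = 0.114). With the trend removed, edgeR called 3 genes, Mir150 and Atp10d among them, and the 24 leading genes kept their signs, with medians of 0.24 and -0.35. How far GC content of a library and genotype act on a given gene was not tested.

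**Figure D4:**
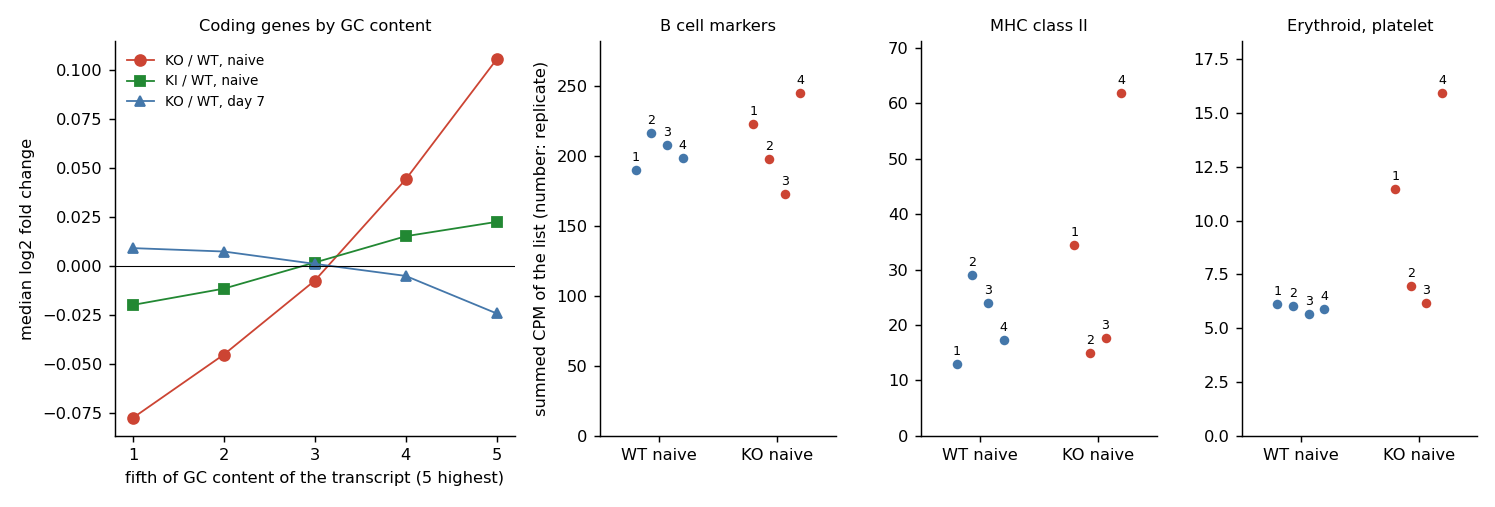
Left, median log2 fold change (y axis) of coding genes of at least 5 CPM in 5 equal groups of transcript GC content (x axis) for 3 comparisons, of which those in naive cells share the wild-type libraries. Right, summed CPM of 3 marker lists of other cell types in each naive library, numbered by replicate: knock-out replicate 4 is the highest on all 3 lists.

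Genes reported as direct targets of miR-150 were not called. Of 19 tested, 13 had a positive fold change, with a median of 0.05 and a day 7 median of 0.06. Trps1, a GATA-type repressor, was the 1 with an unadjusted p under 0.05 (5.26%, against 7.55% of all genes). It held 27.0, 27.0, 28.3 and 33.6 CPM in wild-type and 37.5, 34.8, 34.1 and 34.3 CPM in knock-out libraries, a narrow separation (0.28, SE 0.12, adjusted p = 0.613). Myb held 34.1, 39.6, 34.9 and 35.3 CPM in wild-type and 43.8, 35.1, 53.2 and 44.7 CPM in knock-out libraries. Knock-out replicate 2 lay within the wild-type range and the other 3 above it (0.30, SE 0.19, adjusted p = 0.755). Of 24 genes of microRNA processing and silencing, 12 were positive, with a median of -0.00. Cnot7, a deadenylase subunit (-0.21, SE 0.09), and Mov10, an RNA helicase (0.20, SE 0.09), were the 2 with an unadjusted p under 0.05 (8.33%). With the GC trend removed they gave -0.11 and 0.10.

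Early response genes, which are induced within minutes of stimulation, had more members higher before adjustment than any other list. Of 27 tested, 23 had a positive fold change, with a median of 0.13, and 7 were higher and 0 lower at an unadjusted p under 0.05 (25.9%, against 7.55% of all genes, of which 3.99% were higher). The median was 0.25 without wild-type replicate 2. None was called by edgeR. The AP-1 subunit Junb held 29.2 to 32.1 CPM in wild-type and 34.2 to 41.2 CPM in knock-out libraries, without overlap (0.33, SE 0.12, adjusted p = 0.514). Its partners Jund (0.28, SE 0.12) and Fosl2 (0.45, SE 0.16) and the nuclear receptor Nr4a2 (1.65, SE 0.55, at under 2 CPM) were separated as well. At day 7 the same 4 genes gave -0.46 for Junb, -0.17 for Jund, -0.49 for Fosl2 and -0.67 for Nr4a2. The naive minus day 7 difference had unadjusted p = 3.24e-05 for Junb and 0.000104 for Fosl2, and none passed adjustment. The list's median was -0.12 at day 7, and 0.21 for knock-in naive cells against the same wild-type libraries. In that knock-in comparison Junb was called and gave a larger value than in the knock-out (0.68, SE 0.12, edgeR adjusted p = 0.0345). Nr4a2 gave 1.06 (SE 0.57) and Fosl2 0.10 (SE 0.16) there, so a higher Junb was not particular to the knock-out. The list's median GC content was 53.3%, and with the GC trend removed its naive median was 0.09. In that setting Junb gave 0.17 and Jund 0.08.

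**Figure D5:**
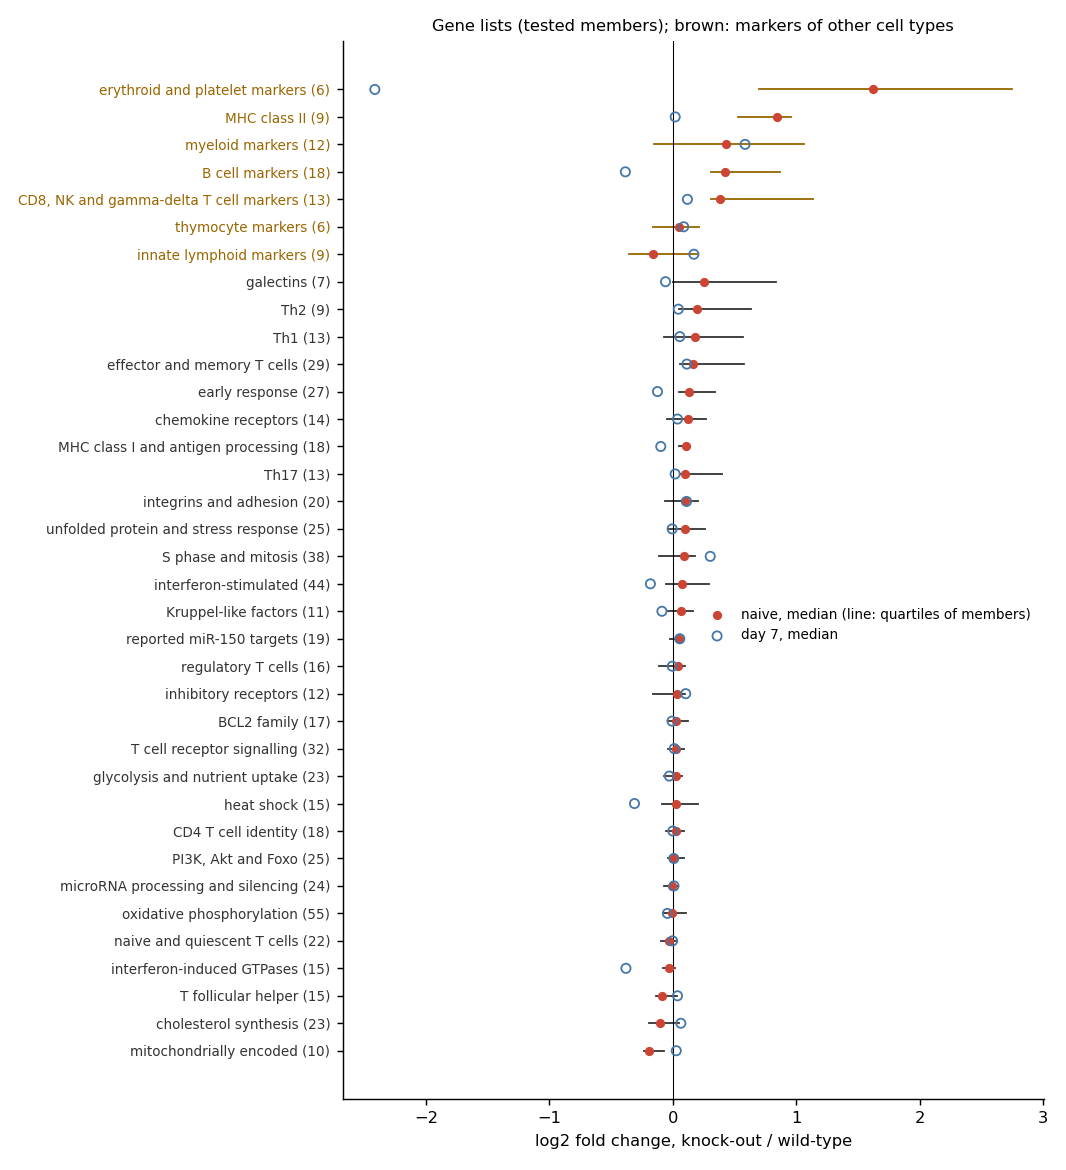
Median log2 fold change of the tested members of each gene list, knock-out over wild-type, in naive cells (filled, with quartiles) and at day 7 (open); the number of tested members is in parentheses. Lists of T cell programs lie within 0.3 of 0 in naive cells, and marker lists of other cells reach farther to the right.

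Of the other T cell programs, MHC class I and antigen processing had 15 of 18 genes positive, with a median of 0.11. H2-K1, a classical class I heavy chain, held 1121 to 1186 CPM in wild-type and 1227 to 1298 CPM in knock-out libraries (0.13, SE 0.06). The peptide transporter subunit Tap1 gave 0.16 (SE 0.07) and H2-T22 0.24 (SE 0.08). The median of this list was -0.10 at day 7. The list is rich in GC (median 54.4%), and with the GC trend removed its naive median was 0.05, with 0.07 for H2-K1 and 0.08 for Tap1. Interferon-stimulated genes had a median of 0.08, with 29 of 44 positive, and it went from -0.15 without knock-out replicate 1 to 0.27 without knock-out replicate 4. Mx1, an antiviral GTPase, held 80.1 CPM in knock-out replicate 1 and 6.84 to 18.8 CPM in the other 7 libraries. Bst2, the antiviral protein tetherin, gave 0.49 (SE 0.24).

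Mitochondrially encoded genes leaned lower: 9 of 10 were negative, with a median of -0.19, and -0.12 without wild-type replicate 4. mt-Nd5 (-0.22, SE 0.07), mt-Nd1 (-0.25, SE 0.09), mt-Co1 (-0.24, SE 0.10) and mt-Nd4 (-0.16, SE 0.08), which encode subunits of respiratory complexes I and IV, had an unadjusted p under 0.05 (40.0%, against 7.55% of all genes), and the libraries overlapped for each. Their summed level was 6947, 5888, 6548 and 8044 CPM in wild-type and 6043, 6251, 5742 and 5791 CPM in knock-out libraries. The transcripts were poor in GC (median 37.4%), and the median was -0.09 with the GC trend removed, when 3 of 10 were positive and these 4 genes gave -0.11, -0.15, -0.14 and -0.05 in that order. Nuclear genes of oxidative phosphorylation had a median of -0.00 over 55 genes, with Cyc1 (0.31, SE 0.11) and Cox5b (0.28, SE 0.11) the 2 at an unadjusted p under 0.05 (3.64%). Cyc1 gave 0.16 with the GC trend removed.

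No gene of the helper subset lists was called in naive cells. The medians were 0.18 for Th1 (13 genes), 0.19 for Th2 (9), 0.10 for Th17 (13), 0.04 for regulatory T cells (16) and -0.09 for T follicular helper genes (15). The Th1 median ran from 0.11 without knock-out replicate 1 to 0.42 without wild-type replicate 2. The Th17 median was 0.21 without wild-type replicate 3 and 0.17 without knock-out replicate 2. Stat4, which relays interleukin-12, gave -0.22 (SE 0.08) and Stat6, which relays interleukin-4, 0.19 (SE 0.08), both without overlap. Il1rl1, the interleukin-33 receptor, gave 1.12 (SE 0.49) and Il21, a follicular helper cytokine, -3.24 (SE 1.45, and -4.58 at a common depth), both from under 4 CPM. Sh2d1a, the adaptor SAP, gave -0.37 (SE 0.15).

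In T cell receptor signalling, 4 of 32 genes were higher and 1 lower at an unadjusted p under 0.05 (15.6%, against 7.55% of all genes). Lat, the adaptor that assembles the signalling complex, held 228 to 259 CPM in wild-type and 265 to 292 CPM in knock-out libraries (0.22, SE 0.07, adjusted p = 0.477). The kinase Lck gave 0.15 (SE 0.07), the diacylglycerol kinase Dgkz 0.18 (SE 0.08), and Themis, a regulator of T cell selection, -0.22 (SE 0.09). With the GC trend removed these were 0.12 for Lat, 0.09 for Lck, 0.05 for Dgkz and -0.12 for Themis. Of 25 genes of PI3K, Akt and Foxo signalling, a pathway in which miR-150 targets have been placed, Mtor (0.15, SE 0.07) and Inpp5d, the phosphatase SHIP-1 (0.13, SE 0.06), were higher at that level (8.0%). With the GC trend removed Mtor gave 0.10 and Inpp5d 0.08, and at a common depth Inpp5d gave 0.07. Among 20 integrin and adhesion genes the median was 0.10, from 0.06 without knock-out replicate 3 to 0.15 without wild-type replicate 2. Itgb7 (0.21, SE 0.07, and 0.10 with the GC trend removed) and Itgb3 (0.18, SE 0.08) were among the 4 higher and 0 lower at an unadjusted p under 0.05.

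Metabolic, stress and cell cycle lists held no called gene. The medians were 0.02 for glycolysis and nutrient uptake (23 genes), -0.10 for cholesterol synthesis (23), 0.09 for S phase and mitosis (38), 0.02 for heat shock (15), 0.10 for the unfolded protein and stress response (25) and 0.03 for the BCL2 family (17). Named members at an unadjusted p under 0.05 were the lactate transporter Slc16a1 (-0.35, SE 0.12, and 0.37, SE 0.11, at day 7), the phosphofructokinase Pfkp (-0.14, SE 0.07) and the sterol desaturase Sc5d (-0.40, SE 0.15). The replication helicase subunit Mcm4 gave -0.28 (SE 0.11), the stress factor Atf4 0.26 (SE 0.11) and the chaperone Dnajb9 -0.43 (SE 0.15). The cholesterol median became 0.04 without wild-type replicate 4 and the heat shock median -0.11 without knock-out replicate 2 and -0.04 without wild-type replicate 3. Those of S phase and mitosis, glycolysis, the BCL2 family, regulatory T cells and T follicular helper genes also crossed 0, by at most 0.04, with at least 1 of the knock-out libraries left out. Bnip3l, a mitophagy receptor, gave -0.16 (SE 0.07, and -0.08 with the GC trend removed) and Pmaip1, the death protein NOXA, 1.34 (SE 0.52).

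Most markers of other cells in the sort were low. Ighm, Ctss, Themis, Gata3 and Il7r were not, with Gata3, the lowest of these, at 50.5 to 71.6 CPM. For B cells, MHC class II, CD8 and NK cells, and red cells and platelets the summed level of the markers was highest in knock-out replicate 4. The myeloid sum was highest in knock-out replicate 1. In bulk RNA, fewer cells of a type and less RNA per cell cannot be told apart. Of 18 tested B cell markers, 17 were positive, with a median of 0.42, and it ran from -0.07 without knock-out replicate 4 to 0.90 without wild-type replicate 3. Their summed level was 190 to 215.9 CPM in wild-type and 173 to 245 CPM in knock-out libraries, most of it from Ighm (135 to 165 CPM in all 8), which was flat (-0.02, SE 0.08, and -0.00 at a common depth). MHC class II genes had 9 of 9 positive, with a median of 0.84, and 0.16 without knock-out replicate 4. They summed to 13.0 to 29.0 CPM in wild-type and to 34.3, 14.95, 17.7 and 61.9 CPM in knock-out libraries 1 to 4. H2-Oa gave 0.96 (SE 0.42).

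CD8, NK and gamma-delta T cell markers had 11 of 13 positive, with a median of 0.39 (from 0.195 without knock-out replicate 4 to 0.67 without knock-out replicate 2), and summed to 77.9 to 85.8 CPM in wild-type and 86.0 to 111 CPM in knock-out libraries. Ctsw, a protease of cytotoxic cells, gave 0.32 (SE 0.13) and Klrk1, the receptor NKG2D, 1.40 (SE 0.62). Myeloid markers summed to 145 to 168 CPM in wild-type and 125 to 191 CPM in knock-out libraries. Most of this sum came from Ctss (100 to 150 CPM over the naive libraries of both groups). Of 12 tested myeloid markers, 8 were positive and 4 negative, with a median of 0.43. That median ran from 0.26 without knock-out replicate 1 to 0.55 without wild-type replicate 2. Lyz1 and Elane were at 0 in all 8 naive libraries. Itgam, an integrin chain on both this and the adhesion list, gave 1.04 (SE 0.31). It was the 1 myeloid marker at an unadjusted p under 0.05 (8.33%, against 7.55% of all genes). Erythroid and platelet markers summed to 5.65 to 6.12 CPM in wild-type and 6.16 to 15.9 CPM in knock-out libraries. Of 6 tested, 6 were positive, with a median of 1.62. That median ran from 0.65 without knock-out replicate 4 to 2.02 without wild-type replicate 3. Hba-a1 was at most 3.62 CPM, and Slc4a1, Car1, Pf4 and Ppbp were at 0 throughout. The 7 tested galectins, which other cells also express, had a median of 0.25 (0.17 without knock-out replicate 3), and Lgals3 gave 2.24 (SE 0.99) from at most 2.39 CPM. Innate lymphoid markers, which include Il7r, had a median of -0.16 (0.12 without wild-type replicate 2, and also above 0 without wild-type replicate 3 or knock-out replicate 1 or 2), and thymocyte markers 0.05 (-0.01 without knock-out replicate 2 or wild-type replicate 2). The part of these cells, or of memory and regulatory CD4 T cells, in the Lgals1, Ahnak and S100a6 values was not tested. Without knock-out replicate 4, Lgals1 was 0.88 (adjusted p = 0.21).

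The day 7 libraries are not among those of the naive comparison. Between the genotypes at day 7, 7 genes were called (0.0476%) and 1390 had an unadjusted p under 0.05 (9.45%). Of the 1110 genes with an unadjusted p under 0.05 in naive cells, 621 (55.9%) had the same sign at day 7, against 50.6% of all genes. Of these 1110, 106 (9.55%) had a p under 0.05 with the same sign and 48 with the opposite sign. Over all genes, 758 (5.16%) had a day 7 p under 0.05 with the same sign and 632 with the opposite sign. Of the 32 genes with a naive p under 0.001, 27 had the same sign at day 7 and 9 also had a p under 0.05 with that sign. Mir150 was among the genes called at both stages. No gene was called by edgeR for a difference between the naive and day 7 fold changes (1145 at an unadjusted p under 0.05, 1 by DESeq2, 0 by limma voom).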

How the data were processed

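RNA from sorted CD4 T cells was sequenced as stranded total RNA (SMARTer Pico kit, Illumina NovaSeq, per the labels' protocols). The deposited values are whole-number read counts per Ensembl gene in 25 libraries, which the authors made on mm10, and DESeq2 is also named, per the submitters' processing notes. The aligner, counter, strand setting and annotation release are not given in the sources used here. Counts in the naive libraries summed to 6024043 to 43640843. The table's 46078 genes were named from the reference, with 849 unmatched (at most 0.0673% of counts).

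All 25 libraries were fitted together, which shares the estimate of spread over 6 groups: filterByExpr (minimum count 10, total 15), TMM scaling and edgeR 4.0.16 quasi-likelihood tests in R 4.3.3, with Benjamini-Hochberg adjustment over 14703 genes and a threshold of 0.05. The test was checked on simulated counts, drawn for each gene separately at the depths of these libraries. They held no trend on GC content, so the check does not cover such a trend. Alternatives were DESeq2 1.42.0, limma 3.58.1 voom, other scalings, filters, groups, blocks, equal depth, libraries left out and, added after the data were seen, a GC trend removed per library. Correlations and permutation tests used scipy 1.17.1.

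Members and lists were chosen with earlier results of these data known. Named were Mir150 and Myb; genes past the threshold in edgeR or DESeq2; in each direction the 12 smallest p-values of at least 5 CPM without overlap; up to 4 members of each list at an unadjusted p under 0.05, otherwise the most abundant; and neighbours of Mir150. Predicted genes and pseudogenes were left out of the ranked and DESeq2 parts of this rule. A few genes that this rule names, 1 of the 3 called in naive cells among them, are not reported here. Seed matches of miR-150 were not analysed here.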

Additional observations from a re-analysis of the deposited data

Results flagged for a closer look

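In 21 of 278 groups of 4 libraries screened, 1 library stood apart: its gap to the nearest of the others, as a share of the group's range, was above Dixon's critical value for 4 values. Chance flags about 1 in 20 such groups. Among wild-type libraries these were Zfp354c in replicate 1 (16.0 CPM, gap 0.896), Lgals3 in replicate 1 (1.26 CPM, gap 0.893), Prr12 in replicate 2 (171 CPM, gap 0.996) and S100a6 in replicate 2 (2.82 CPM, gap 0.841). Hba-a1 in replicate 2 (0.134 CPM, gap 1.0), Rcn3 in replicate 3 (4.47 CPM, gap 0.871) and Tap1 in replicate 3 (225.14 CPM, gap 0.968) were the others.

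Among knock-out libraries, Mx1 stood apart in replicate 1 (80.1 CPM, gap 0.864), App in replicate 2 (23.4 CPM, gap 0.94) and Mov10 in replicate 4 (64.2 CPM, gap 0.84). In replicate 3 these were Ctsw (31.6 CPM, gap 0.855), Tnfrsf18 (20.8 CPM, gap 0.888) and Ighm (135 CPM, gap 0.942).

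Whole-library measures stood apart as well. Wild-type replicate 1 had the lowest share of ribosomal RNA and like genes (20.6%, gap 0.859) and the highest share of protein-coding genes (71.6%, gap 0.969) of its group. Knock-out replicate 2 had the same pattern in its group (23.8%, gap 0.869, and 68.6%, gap 0.857). Its summed level was the lowest for effector and memory genes (1705 CPM, gap 0.923) and the highest for glycolysis and nutrient uptake (1611 CPM, gap 0.941). Wild-type replicate 4 was highest for cholesterol synthesis (529 CPM, gap 0.919), and knock-out replicate 4 for innate lymphoid markers (413 CPM, gap 0.881).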

How the results depend on the processing

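Lgals1 was tested again under 21 other settings and stayed called in 9, at log2 fold changes of 0.88 to 1.12 over all of them. The 3 genes called in naive cells became 16 with DESeq2, which left 6558 adjusted p-values missing, 147 with no filter on low counts (119 higher, with 61 small RNA genes among the 147) and 1 with wild-type replicates 1 and 3 and knock-out replicates 1 and 2 only. They became 2 to 3 with a library left out. For the difference between stages, the count of 0 became 1 with DESeq2 and 2.0e+02 with no filter (173 higher and 30 lower), and stayed at 0 with each library left out. The cause was not tested. Lgals1 was not called with the library number as a covariate (adjusted p = 0.0788), from the compared groups alone (0.0506), with a block for each run of 4 library numbers (0.173) or with wild-type replicates 1 and 3 and knock-out replicates 1 and 2 only (0.778). In that block Gm45713 was called (0.0421). Fold changes that turned in sign were near 0: Rpl13a (-0.155 with wild-type replicates 1 and 3 and knock-out replicates 1 and 2, and -0.052 to 0.25 with a library left out), Prrg2 (-0.25, and -0.042 to 0.50) and Ighm (0.018 with the covariate, 0.088 with the replicates named, 0.037 with the block, and -0.046 to 0.043 with a library left out). No paired analysis was possible because library numbers are not shared between groups. Alternatives on miR-150 seed sites were not run. Depth limits genes of a few CPM, such as Rcn3 and S100a6.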

Other observations

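Chemokine receptors and inhibitory receptors, not described above, held no called gene. The 14 tested chemokine receptors had a median log2 fold change of 0.12, with 8 positive and 0 at an unadjusted p under 0.05 (edgeR, 0.0% against 7.55% of all genes). The median ran from 0.00 without knock-out replicate 4 to 0.26 without knock-out replicate 2. The 12 tested inhibitory receptors had a median of 0.03, with 7 positive and 0 at that level (0.0%), and a median of -0.04 without knock-out replicate 4. Interferon-induced GTPases had a naive median of -0.03 over 15 genes (5 positive) and a day 7 median of -0.38 (0 positive). The naive median ran from -0.17 without knock-out replicate 1 to 0.08 without knock-out replicate 4.

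At day 7 the gene Pde3b, a phosphodiesterase of cyclic AMP, was called on chromosome 7 (log2 fold change -0.37, SE 0.06, edgeR adjusted p = 0.0113). In naive cells its value was -0.19 (unadjusted p = 0.00816, adjusted p = 0.491). Of the 7 genes called at day 7, 4 had an unadjusted p under 0.05 in naive cells.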
